A study of Mus musculus with 247 samples.

Results

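PU.1 binding was measured by chromatin immunoprecipitation and sequencing (ChIP-seq) in RAW264.7 cells, a macrophage line of BALB/c mice. The comparison set 2 WT LPS libraries, from wild-type cells treated with lipopolysaccharide for 2 hours, against 2 WT Ctrl libraries, from untreated wild-type cells. Its members were all 52093 PU.1 sites of the deposited table, with each value column assigned to a library by its header, and 52009 of them held enough reads to be tested. The same table held 2 GPS2 KO LPS and 2 GPS2 KO Ctrl libraries, from cells in which GPS2, a subunit of the NCoR and SMRT corepressor complexes, had been knocked out. Those 4 libraries shared no library with the WT comparison, so they gave a repeat of the treatment in a second genotype. JunB ChIP-seq at 2 hours and RNA-seq at 6 hours of LPS in the same line (WT LPS and untreated WT Con, 4 libraries each) served as further readouts at the same sites and genes. The labels do not say whether the GPS2 KO line is 1 clone, nor whether the libraries of a group came from separate cultures.

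PU.1, encoded by Spi1, is an ETS-family transcription factor that macrophages need in order to form. It binds purine-rich sequence around a GAGGAA core at a very large number of places, opens chromatin there and makes room for factors that act on signals. Lipopolysaccharide, a component of the Gram-negative bacterial wall, is sensed by Toll-like receptor 4, which activates NF-kB and AP-1 (dimers of Fos and Jun proteins, JunB among them). PU.1 binding that appears on stimulation at places that were little occupied before has been described in macrophages as the formation of latent enhancers.

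The sites that carry the comparison are shown first by their sequence, taken from NCBIM37 (mm9), plus strand, as the centre of the site with the 100 bases on either side. Capitals mark the ETS core GAGGAA and the AP-1 letters TGANTCA on either strand. The first 5 sequences held more PU.1 reads in WT LPS than in WT Ctrl. They are the intronic site 175 kb upstream of the Flrt3 start, which had the largest change among well-covered sites, and the most increased called site of Ccl2, Il1b, Abca1 and Il10.
Flrt3, chr2:140672610-140672810: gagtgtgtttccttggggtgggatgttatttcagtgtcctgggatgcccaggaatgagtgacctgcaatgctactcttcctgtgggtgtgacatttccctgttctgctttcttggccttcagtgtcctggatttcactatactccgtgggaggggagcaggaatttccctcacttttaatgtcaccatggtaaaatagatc
Ccl2, chr11:81829608-81829808: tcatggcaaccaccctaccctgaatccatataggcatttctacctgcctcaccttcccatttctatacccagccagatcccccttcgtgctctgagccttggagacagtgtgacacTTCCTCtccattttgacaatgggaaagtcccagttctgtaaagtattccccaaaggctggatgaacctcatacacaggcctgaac
Il1b, chr2:129206627-129206827: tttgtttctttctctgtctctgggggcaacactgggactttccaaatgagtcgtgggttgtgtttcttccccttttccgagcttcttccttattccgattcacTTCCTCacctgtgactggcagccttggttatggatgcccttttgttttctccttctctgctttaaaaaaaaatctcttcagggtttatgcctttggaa
Abca1, chr4:53134892-53135092: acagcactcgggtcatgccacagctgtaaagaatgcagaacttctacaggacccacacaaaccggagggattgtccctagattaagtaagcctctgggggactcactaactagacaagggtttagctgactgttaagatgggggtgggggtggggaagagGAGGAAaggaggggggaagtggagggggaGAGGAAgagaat
Il10, chr1:132930426-132930626: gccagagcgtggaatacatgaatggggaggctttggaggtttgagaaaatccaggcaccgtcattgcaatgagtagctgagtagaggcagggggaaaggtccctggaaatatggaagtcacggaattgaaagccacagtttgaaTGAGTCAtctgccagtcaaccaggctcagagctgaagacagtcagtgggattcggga
The Flrt3 window held neither set of letters, the Ccl2 and Il1b windows each held 1 ETS core, the Abca1 window held 2, and the Il10 window held 1 AP-1 match and no ETS core. The other 2 sequences held fewer PU.1 reads in WT LPS than in WT Ctrl.
Stab2, chr10:86391755-86391955: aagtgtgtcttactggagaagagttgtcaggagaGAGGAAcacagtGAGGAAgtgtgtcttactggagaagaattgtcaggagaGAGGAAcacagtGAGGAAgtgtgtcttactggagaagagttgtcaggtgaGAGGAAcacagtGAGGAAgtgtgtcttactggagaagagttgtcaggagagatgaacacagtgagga
Ksr2, chr5:117896467-117896667: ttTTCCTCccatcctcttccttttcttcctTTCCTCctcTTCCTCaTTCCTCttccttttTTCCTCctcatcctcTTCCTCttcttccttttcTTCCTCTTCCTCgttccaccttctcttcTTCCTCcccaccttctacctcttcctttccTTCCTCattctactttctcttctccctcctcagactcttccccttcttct
Both windows are made of short repeated units. The Stab2 window repeats its ETS core 6 times and the Ksr2 window holds 10 matches.

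Relative to the typical PU.1 site, PU.1 signal was higher after LPS at some sites and lower at others. Gains were more frequent at cytokine and chemokine genes and next to JunB. Losses were more frequent at sites without JunB and at those with 4 or more ETS cores. The latter made up 5.61% of the lower sites. Of the 52009 sites tested, 9546 were called at an adjusted p under 0.05 (18.4%). PU.1 was higher in WT LPS at 5672 of them (10.9% of sites tested) and lower at 3874 (7.45%), by limma with precision weights and Benjamini-Hochberg adjustment. The median change over all sites was -0.003 on the log2 scale, because the values were scaled by the trimmed mean of ratios between libraries (TMM), which sets the typical site to no change. Called higher sites had a median of 44.9 and 44.5 normalised reads (reads per 10000000 mapped reads, divided by the TMM factor) in the WT LPS libraries, against 24.2 and 24.2 in the WT Ctrl libraries. Called lower sites had a median of 20.6 and 21.2 in WT LPS and 40.0 and 40.1 in WT Ctrl. The counts depend on each library: without WT LPS replicate 1 there were 3714 higher and 1505 lower sites, without WT LPS replicate 2 3435 and 1101, without WT Ctrl replicate 1 2786 and 2731, and without WT Ctrl replicate 2 3696 and 2940. In all 4 of these fits 1677 of the higher and 633 of the lower sites were called. In each of these fits 1 group holds a single library, which is assumed to vary like the other groups, so a call can be lost with no smaller change. Where the call of a site described below was lost without 1 WT library, the change in that fit is given with its adjusted p.

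The share of all mapped reads that fell inside PU.1 sites was 16% and 15.5% in the WT LPS libraries, against 24.8% and 25.2% in the WT Ctrl libraries. The GPS2 KO LPS libraries had 11.7% and 11.7%, and the GPS2 KO Ctrl libraries 17.5% and 17.2%. Scaled to all mapped reads in place of the typical site, the median PU.1 change was therefore -0.69 on the log2 scale, and 31559 sites were called (60.7%), 689 higher (1.32%) and 30870 lower (59.4%). A smaller amount of PU.1 on DNA and a less efficient precipitation in the treated libraries cannot be told apart here. All changes below are relative to the typical site unless all mapped reads are named. Spi1 mRNA, read at 6 hours, averaged 6042 ± 717 normalised reads in WT LPS and 3230 ± 164 in WT Con (SD, n = 4 each), a log2 change of 0.90.

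**Figure D1:**
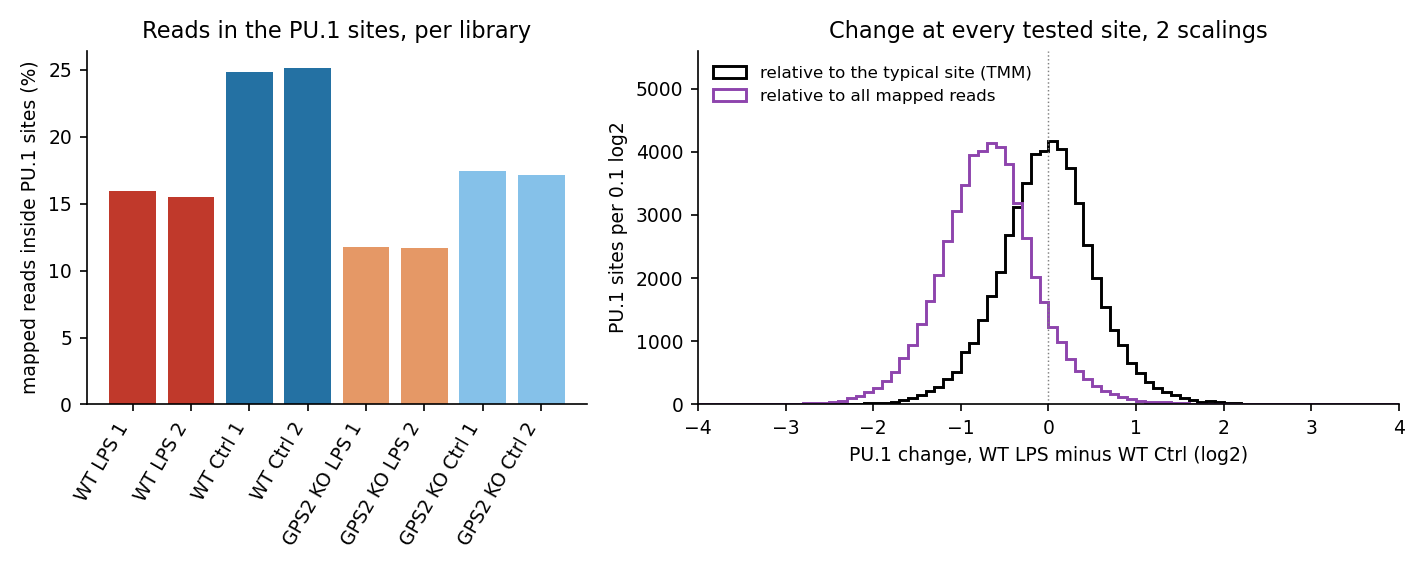
Left, the percentage of mapped reads inside the PU.1 sites in each of the 8 libraries; right, the number of tested sites per 0.1 log2 of PU.1 change, WT LPS minus WT Ctrl, under 2 scalings. The WT LPS bars stand at 16 and 15.5% and the WT Ctrl bars at 24.8 and 25.2%, and scaling to all mapped reads moves the distribution down by 0.69.

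The 2 libraries of each group agree within sampling noise. The chi-square of their counts was 0.943 per site between the WT LPS libraries and 0.880 between the WT Ctrl libraries, where 1 would be pure counting error, against 2.44 and 2.39 per site between a WT LPS and a WT Ctrl library. Each pair may thus be 1 preparation sequenced as 2 libraries and counts as 1 sample, so values are given per library with no SD. The fit itself treats the 2 libraries of a group as replicates, with 4 residual degrees of freedom over 8 libraries. The prior degrees of freedom, which set the weight of a spread pooled over all sites, were infinite. Each site was thus tested with that pooled spread, scaled by the precision weights, and not with its own. The adjusted p-values, SEs and counts of calls of the fit therefore compare these libraries and not independently grown cells. Mapped reads ran from 8818532 to 10302833 in the WT LPS libraries and from 8699941 to 10105200 in the WT Ctrl libraries, and the median site held 18 to 34 reads in these 4 libraries. In RNA of the line, 9 macrophage markers summed to 84658 to 116918 normalised reads in WT LPS and 90046 to 99084 in WT Con, while the 3 of 8 T and B cell markers in the table summed to at most 1.52 in WT LPS and 2.59 in WT Con. The 3 of 5 granulocyte and dendritic cell markers in the table summed to 37.1 to 44.1 in WT LPS and 25.6 to 31.1 in WT Con. S100a8, a granulocyte and monocyte calcium-binding protein gene, averaged 9.39 ± 6.36 in WT LPS and 0.26 ± 0.30 in WT Con (SD, n = 4 each). Csf3r was also higher, at 28.5 ± 5.24 in WT LPS and 16.6 ± 1.69 in WT Con. Zbtb46 was lower, at 3.92 ± 1.41 in WT LPS and 11.2 ± 2.20 in WT Con. The part of such cells in the results was not tested.

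In GPS2 KO LPS against GPS2 KO Ctrl, 9837 sites were called (18.9%), 5598 higher (10.8%) and 4239 lower (8.15%). Of the 5672 sites higher in WT LPS, 1895 (33.4%) were also called higher and 166 were called lower in GPS2 KO LPS against GPS2 KO Ctrl. Of the 3874 sites lower in WT LPS, 962 (24.8%) were also lower and 216 were higher in GPS2 KO LPS. By sign alone, 76.4% of the sites higher in WT LPS and 27.6% of those lower had a change above 0 in GPS2 KO, against 49.7% of all sites tested. The 2 changes had a Pearson r of 0.30 across 52009 sites and of 0.41 across the 21917 sites with a mean of at least 30 reads, given as a description since sites share libraries and depth. The test of the difference between the genotypes' responses called 4299 sites (8.27%), with the WT change above the GPS2 KO change at 4.06% of all sites and below it at 4.21%.

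**Figure D2:**
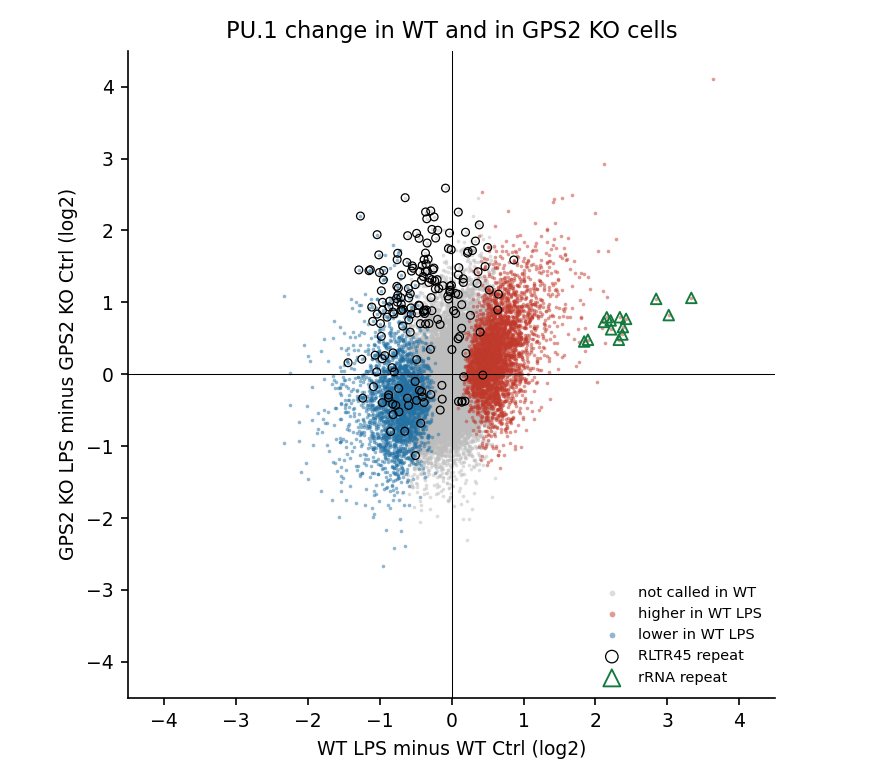
PU.1 change on LPS at the 21917 sites with a mean of at least 30 reads, in WT cells (horizontal, WT LPS minus WT Ctrl, log2) and in GPS2 KO cells (vertical, GPS2 KO LPS minus GPS2 KO Ctrl, log2), coloured by the WT call. Circles mark RLTR45 repeats, most of which lie at or below 0 in WT and above 0 in GPS2 KO, and triangles mark rRNA repeats, to the right of nearly all other sites.

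The largest gain at a well-covered site (a mean of at least 30 reads) was at the Flrt3 site shown above (Flrt3 encodes a cell-surface adhesion protein). It held 90.9 and 80.5 normalised reads in WT LPS, against 5.90 and 6.05 in WT Ctrl. The groups were far apart, and the site was called without each WT library too, with a log2 change of 3.63 ± 0.365 (SE; adjusted p = 3.88e-20), and the change in GPS2 KO was 4.10. JunB binding at the same place rose by 3.90 on the log2 scale and Flrt3 mRNA by 6.90. In all, 8 of 17 sites annotated to Flrt3 were called higher and none lower (5 to 6 without 1 WT library).

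Large gains also stood at sites annotated to Mylip, Hilpda, Chst11, Agpat4 and Pid1. A site in Mylip, which encodes the ubiquitin ligase that degrades the LDL receptor and is an LXR target, held 53.3 and 54.0 normalised reads in WT LPS and 5.90 and 6.81 in WT Ctrl (log2 change 2.91). Mylip mRNA had a log2 change of -0.32. A site 7.9 kb upstream of Hilpda, a lipid-droplet protein gene, held 38.8 and 66.7 in WT LPS and 7.21 and 17.4 in WT Ctrl. Near Chst11, a chondroitin sulfotransferase gene, the values were 63.0 and 65.7 in WT LPS and 14.4 and 16.6 in WT Ctrl. In Agpat4, an acyltransferase gene, they were 48.5 and 60.4 in WT LPS and 9.17 and 14.4 in WT Ctrl. The GPS2 KO changes of these 4 sites lay between 1.08 and 2.25. At the Hilpda site the WT change was larger by 1.07 on the log2 scale, and this difference between the genotypes passed the test. A site 3.0 kb upstream of Pid1 held 77.6 and 61.4 in WT LPS and 14.4 and 18.2 in WT Ctrl (log2 change 2.03), but its change in GPS2 KO was -0.11, and the difference between the genotypes passed the test (adjusted p = 2.31e-06). The Hilpda, Chst11, Agpat4 and Pid1 sites were chosen after their values were seen.

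At cytokine genes PU.1 rose at 36 of 104 sites (34.6%, against 10.9% of all sites) and fell at 1 (0.962%, against 7.45%). The median change of these sites was 0.38, against -0.003 over all sites, but scaled to all mapped reads 9 of them were higher and 36 lower. On that scaling each of the 19 gene lists had more lower than higher sites. The promoter of Csf3, which encodes granulocyte colony-stimulating factor, held 50.9 and 32.8 normalised reads in WT LPS and 7.21 and 9.08 in WT Ctrl at 191 bases upstream of the start. Its log2 change was 2.20 ± 0.325 (SE; limma adjusted p = 2.47e-09), the GPS2 KO change was 3.0 and the JunB change 4.22. A site 1.3 kb upstream of Osm, the gene of the cytokine oncostatin M, held 15.8 and 21.2 in WT LPS and 4.59 and 1.51 in WT Ctrl. The 1 cytokine site that fell lies 21 kb upstream of Csf1, the gene of the macrophage growth factor, with 53.3 and 47.7 in WT LPS and 66.8 and 84.7 in WT Ctrl. Without 1 WT library, 19 to 24 cytokine sites were higher. Without WT Ctrl replicate 1 the Osm site was not called, although its log2 change was 2.92, against 2.33 with all libraries (limma adjusted p = 0.104). The Csf1 change of -0.56 was -0.41 without WT Ctrl replicate 2 (0.119) and -0.48 without WT LPS replicate 2 (0.157).

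Chemokine genes had 15 of 51 sites higher (29.4%, against 10.9% of all sites) and 1 lower (1.96%, against 7.45%). The Ccl5 promoter, 64 bases upstream of the start, held 33.9 and 28.6 normalised reads in WT LPS and 8.52 and 3.78 in WT Ctrl, a log2 change of 2.19. At Ccl5, as at Csf3, the site lay at the promoter itself. The chemokine site that fell lies 3.2 kb downstream of the Cxcl1 start, with 20.6 and 15.9 in WT LPS and 34.7 and 31.8 in WT Ctrl, while its GPS2 KO change was 0.54 (adjusted p of the difference 0.0132). The Cxcl1 change of -0.86 was -1.03 without WT LPS replicate 1, -0.67 without WT LPS replicate 2 and -0.80 without WT Ctrl replicate 1, and was not called in those fits (limma adjusted p of 0.0538, 0.241 and 0.0725), while 13 chemokine sites were higher in each fit without 1 WT library.

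Among NF-kB subunits and inhibitors, 26 of 125 sites were higher (20.8%, against 10.9% of all sites) and 5 lower (4.0%, against 7.45%). A site 11.3 kb upstream of Tnfaip3, which encodes the NF-kB inhibitor A20, held 33.9 and 40.2 in WT LPS and 9.17 and 5.30 in WT Ctrl. Within Nfkb1, the gene of the p105 precursor of the p50 subunit, a site 20.7 kb into the gene held 18.2 and 20.1 in WT LPS and 3.28 and 1.51 in WT Ctrl, while a site at 63.4 kb fell to 7.27 and 14.8 in WT LPS, against 24.9 and 25 in WT Ctrl. Nfkb1 thus held called sites of both directions, although the first was not called without WT Ctrl replicate 1 (log2 change 2.97, against 2.61 with all libraries, limma adjusted p = 0.0967). The change of -1.14 at the other was -0.72 without WT LPS replicate 1 (0.255) and -1.65 without WT LPS replicate 2 (0.0779). In the list as a whole, 15 to 21 sites were higher and 0 to 3 lower without 1 WT library. Signalling brakes had 25 of 121 sites higher (20.7%, against 10.9% of all sites) and 4 lower (3.31%, against 7.45%), and a site of Dusp5, the gene of a nuclear ERK phosphatase, held 21.8 and 24.4 in WT LPS and 2.62 and 3.78 in WT Ctrl. Without 1 WT library, 16 to 19 of the brake sites were higher and 1 to 4 lower, the fewest higher sites without WT LPS replicate 1 or WT Ctrl replicate 1.

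AP-1 subunit genes had 10 of 77 sites higher (13%) and 8 lower (10.4%), against 10.9% and 7.45% of all sites. A pair of sites downstream of Fos rose, at 39.9 kb to 81.2 and 76.3 in WT LPS, against 29.5 and 26.5 in WT Ctrl, and at 49.3 kb to 52.1 and 44.5 in WT LPS, against 15.7 and 12.9 in WT Ctrl. Of 19 sites annotated to Jun, 3 were higher and 4 lower, and the site 163 kb upstream held 9.70 and 23.3 in WT LPS and 35.4 and 43.9 in WT Ctrl. Without 1 WT library, 5 to 10 sites of the list were higher and 2 to 7 lower, and the change of -1.26 at the Jun site was -0.72 and not called without WT LPS replicate 1 (limma adjusted p = 0.117).

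In 12 further lists 11.4 to 19.4% of sites were higher, against 10.9% of all sites, whether or not the genes are tied to the macrophage state. From 0% (osteoclast genes) to 11.5% (housekeeping controls) of their sites were lower, against 7.45% of all sites. Only the housekeeping, cell cycle and LXR lists lay above that share. Macrophage lineage factors had 46 of 271 sites higher (17%) and 12 lower, and macrophage surface genes had 28 of 144 higher (19.4%) and 10 lower. The Itgax promoter (CD11c, an integrin chain) held 58.2 and 74.1 normalised reads in WT LPS and 34.1 and 25.7 in WT Ctrl. Toll-like receptors and adaptors had 13 of 92 sites higher and 3 lower, effector enzymes 8 of 46 and 1, interferon-stimulated genes 10 of 65 and 2, and antigen presentation genes 9 of 55 and 3. For LXR and cholesterol efflux genes the counts were 11 of 62 higher and 5 lower, for osteoclast genes 9 of 54 and 0, and for corepressor subunits 10 of 53 and 3. Housekeeping controls had 9 of 52 sites higher (17.3%) and 6 lower (11.5%), glycolysis genes 11 of 78 and 1 (1.28%), and cell cycle genes 8 of 70 and 6 (8.57%). Of the 19 lists, the cytokine and chemokine lists had the largest shares of higher sites. The share in the corepressor list was 18.9%, close to that of the macrophage lists. In every fit without 1 WT library all these counts of higher sites were smaller, for macrophage lineage factors 22 to 33 and for macrophage surface genes 14 to 20, and 2 to 10 in each of the other 10 lists of this kind.

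At lymphocyte markers the sites called in WT were lower ones. Of 24 sites at lymphocyte markers, 6 were lower (25%, against 7.45% of all sites) and none higher. In GPS2 KO LPS against GPS2 KO Ctrl, 1 of the 24 was called higher and none lower. Near Ebf1, a B cell transcription factor gene, a CT-rich repeat held 13.3 and 14.8 normalised reads in WT LPS and 36.7 and 46.1 in WT Ctrl, a log2 change of -1.47. Sites near Cd3e and Cd79b, chains of the T and B cell receptor complexes, held 12.1 and 9.53, and 14.5 and 21.2, in WT LPS, against 20.3 and 25, and 30.1 and 30.3, in WT Ctrl. The groups did not overlap at any of these 3 sites, but they were picked among called sites, so this adds nothing to the calls. Of 11 sites at erythroid, megakaryocyte and mast cell markers, 1 was lower (9.09%, close to the 7.45% of all sites), in an exon near Itga2b, and none higher. Without 1 WT library 1 to 4 lymphocyte marker sites were lower, and 1 was higher without WT LPS replicate 2: the Ebf1 and Itga2b calls held in all 4 such fits, the Cd79b call in none, and the Cd3e call only without WT Ctrl replicate 1.

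Around the 12 genes followed site by site, most gains lay away from the site nearest to the start, as did most sites. Of the 12 sites nearest to the starts, PU.1 was called higher at those of Il1b and Abca1 and was not called at the other 10. The Abca1 site, at 4.4 kb, had a log2 change of 0.54, which was 0.59 without WT LPS replicate 1 (limma adjusted p = 0.0937), 0.47 without WT LPS replicate 2 (0.262) and 0.24 without WT Ctrl replicate 1 (0.556). Ccl2, the monocyte-attracting chemokine, had 5 of 10 sites higher and none lower. At 19.4 kb upstream the site held 41.2 and 41.3 normalised reads in WT LPS and 9.83 and 15.9 in WT Ctrl, a log2 change of 1.67 (adjusted p = 7.77e-08). At 12.7 kb upstream, the most occupied of them, it held 153 and 160 in WT LPS and 112 and 122 in WT Ctrl. The promoter site, 244 bases upstream, held 89.7 and 108 in WT LPS and 91.7 and 85.5 in WT Ctrl, overlapping. The site 24.8 kb upstream differed between genotypes, with a log2 change of 1.00 in WT and -0.05 in GPS2 KO (adjusted p of the difference 0.0197). Ccl2 mRNA averaged 26978 ± 9664 normalised reads in WT LPS and 87.2 ± 6.12 in WT Con (SD, n = 4 each). Of the 5 calls, 4 held without any 1 WT library.

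Il1b, the gene of interleukin-1 beta, had 3 of 8 sites higher and none lower. The site 9.9 kb upstream held 122 and 127 normalised reads in WT LPS and 87.2 and 77.9 in WT Ctrl. The promoter, 40 bases upstream of the start, held 58.2 and 54.0 in WT LPS and 39.3 and 38.6 in WT Ctrl (log2 change 0.51, adjusted p = 0.0281), where JunB rose by 2.32 on the log2 scale. Il10, the anti-inflammatory cytokine gene, had 2 of 9 sites higher, at 6.1 and 14.1 kb downstream. The site at 14.1 kb is the one shown above with its AP-1 letters, at 37.6 and 36.0 in WT LPS and 15.1 and 19.7 in WT Ctrl. Abca1, the cholesterol efflux pump, had 4 of 11 sites higher and 1 lower. Its intronic site at 37.8 kb held 44.9 and 50.8 in WT LPS and 17.7 and 25 in WT Ctrl, and the site that fell, at 70.8 kb, held 3.64 and 15.9 in WT LPS and 22.9 and 24.2 in WT Ctrl. The calls at 9.9 kb for Il1b, 14.1 kb for Il10 and 37.8 kb for Abca1 held without each WT library, in which fits Il1b had 1 to 2 higher sites, Il10 1 to 3 and Abca1 1 to 3. At the Il1b promoter the change stayed at 0.46 to 0.57 without any 1 of them, close to the 0.51 with all, but was not called in those fits (limma adjusted p of 0.0964 to 0.18). The Il10 change of 0.96 at 6.1 kb was 0.73 without WT Ctrl replicate 1 (0.102) and 0.53 without WT LPS replicate 2 (0.376). The Abca1 change of -1.38 at 70.8 kb was -0.54 without WT LPS replicate 1 (0.405) and -2.41 without WT LPS replicate 2 (0.0713).

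Cd36, a scavenger receptor, had 5 of 8 sites higher, with log2 changes of 0.47 to 0.90, and Cd14, the LPS co-receptor, had 1 higher and 1 lower of 4, but each of these calls was lost without at least 1 WT library. No site of Tnf, Nos2, Cxcl10, Spi1, Csf1r or Gpnmb was called. The Tnf promoter held 33.9 and 37.1 normalised reads in WT LPS and 31.5 and 34.8 in WT Ctrl, and the site 4.3 kb upstream of Nos2, the inducible nitric oxide synthase gene, held 33.9 and 23.3 in WT LPS and 22.3 and 25 in WT Ctrl. Tnf mRNA nevertheless averaged 9472 ± 198 in WT LPS and 375 ± 23.2 in WT Con. The strongest Csf1r site, 3.1 kb into the gene of the macrophage growth factor receptor, held 152 and 175 in WT LPS and 163 and 160 in WT Ctrl, and Csf1r mRNA fell by 1.97 on the log2 scale. Scaled to all mapped reads, the called gains at Il1b and Cd14, the Ccl2 site at 12.7 kb, 3 of the Abca1 sites and 4 of the Cd36 sites take a negative sign.

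**Figure D3:**
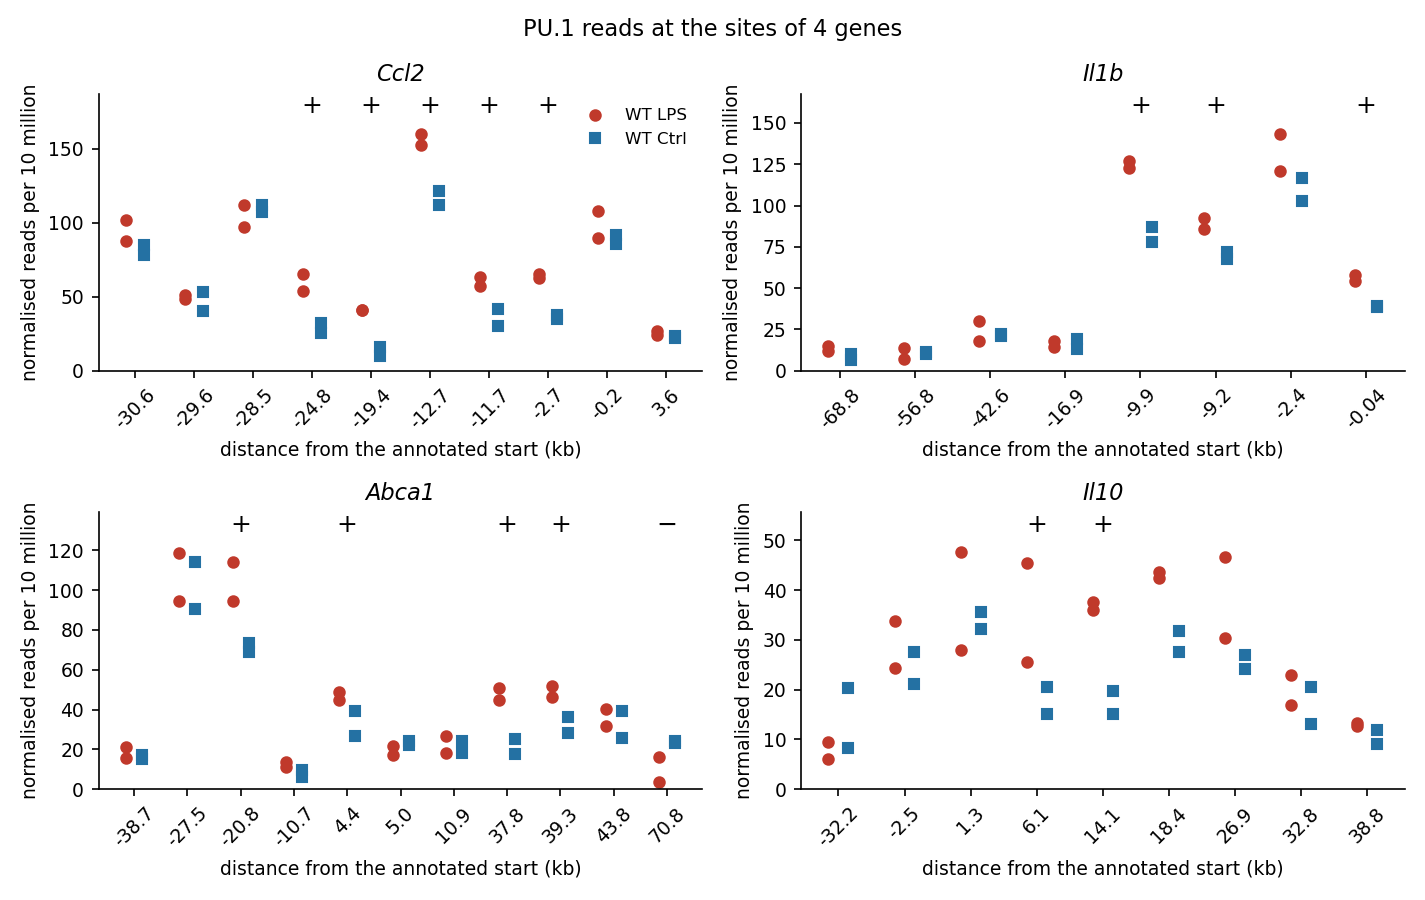
Normalised PU.1 reads per library at every site annotated to Ccl2, Il1b, Abca1 and Il10, ordered by distance in kb from the annotated start; circles are the 2 WT LPS libraries, squares the 2 WT Ctrl libraries, and a plus or minus sign marks a site called higher or lower. Gains stand at 5 of 10, 3 of 8, 4 of 11 and 2 of 9 sites.

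Beyond the lists, the genes with the most higher sites were Fam49b (12 of 25), H2afy3 (11 of 30) and Trps1 (11 of 25). Each had fewer in every fit without 1 WT library. Over all sites 10.9% were higher and 7.45% lower, and a ranking by count favours genes with many annotated sites. At Dab2, an endocytic adaptor gene, 9 of 19 sites were higher in WT LPS and none lower (5 to 7 higher without 1 WT library), with a median log2 change of 0.36, while in GPS2 KO none were higher and 3 lower, with a median of -0.61. The difference between genotypes passed the test at 7 of the 19. Rreb1 had the most lower sites (6 of 33) but also 3 higher ones, and Il1r2, the decoy receptor of interleukin-1, had 4 of 6 lower. Both genes had fewer lower sites in every fit without 1 WT library.

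Sites at genes whose mRNA rose gained PU.1 more often. Of 1637 sites annotated to genes with an RNA log2 change above 3, 379 were higher (23.2%) and 61 lower (3.73%). Of 22105 sites at genes between -1 and 1, 10.5% were higher and 7.15% lower, and of 5991 sites at genes below -1, 9.66% were higher and 7.49% lower. The sites of falling genes were thus called lower about as often as those of steady genes. RNA was read at 6 hours and PU.1 at 2 hours, and the RNA comparison itself called 8297 of 11791 genes (70.4%), 4027 higher (34.2%) and 4270 lower (36.2%). Without WT LPS replicate 4, which stood apart from the other 3 libraries of its group, it called 9419 of 11760 genes (80.1%), 39.2% higher and 40.9% lower. In bulk RNA, more cells with a transcript and more transcript per cell cannot be told apart.

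Higher and lower sites differed in the company they kept. A JunB site overlapped 72.3% of higher sites (95% interval 71.1 to 73.4), 25% of lower sites (23.6 to 26.4) and 39.2% of sites not called. The intervals here are exact binomial ones and treat sites as independent. Regions bound by MED1, a Mediator subunit, in LPS-treated cells overlapped 71.2% of higher, 22.4% of lower and 37.8% of uncalled sites. Open regions that the authors' merged table attributes to its WT peak list, from untreated cells whose libraries the labels title CRISPR_KO_Ctrl, overlapped 78.3% of higher, 69.2% of lower and 66.9% of uncalled sites. Uncalled sites held fewer reads, a median of 23.6 per WT library against 37.5 at higher and 38.6 at lower sites. At sites with a mean of at least 30 reads, a comparison added after seeing the data, a JunB site overlapped 76.2% of higher, 31.5% of lower and 54.3% of uncalled sites, and a MED1 region 77.9, 27.6 and 55.8%. The open regions overlapped 88.0% of higher, 78.7% of lower and 86.6% of uncalled sites there. JunB regions were called in treated and untreated libraries together, and the MED1 regions in treated libraries only.

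The size of the PU.1 change went with the size of the JunB change. Across 21716 sites with both, the Pearson r was 0.54, a description across sites of different libraries of the same treatment. The JunB comparison called 21874 of 58810 sites (37.2%), 10354 higher (17.6%) and 11520 lower (19.6%). JunB was called higher at 36.4% and lower at 11.1% of the PU.1 higher sites that had a JunB site, against 0.414% higher and 58.7% lower at the PU.1 lower sites. These JunB directions are relative to the typical JunB site. The share of mapped reads inside JunB sites was 28.8% and 29.2% in WT LPS, against 6.91% and 7.51% in WT Ctrl, and scaled to all mapped reads 55837 JunB sites were called (94.9%), 55818 higher (94.9%) and 19 lower (0.0323%), with a median log2 change of 1.91, against 0.03 relative to the typical JunB site. Among sites with a log2 PU.1 change above 1, at a mean of at least 30 reads, 81.2% overlapped a JunB site, against 13.5% of those below -1.

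Letters of the DNA differed between the classes in the same sense. AP-1 letters, TGANTCA, stood within 100 bases of the centre in 23.7% of higher, 3.98% of lower and 13.5% of uncalled sites (13.9% of all). NF-kB letters, GGANTTTCC, stood in 2.28% of higher, 0.465% of lower and 0.974% of uncalled sites (1.08% of all). The longer PU.1 letters GAGGAAGT, each of which also counts as an ETS core, were less frequent in higher sites at 22.9% than in lower sites at 29.2% (25.1% of all), and the ETS core GAGGAA stood in 64.4% and 65.9% (61.3% of all). GC box letters, CCGCCC, stood in 6.11% of higher and 9.88% of lower sites (8.62% of all). Matches were counted on both strands and describe letters, not binding. Of the 6197 sites with both AP-1 letters and a JunB site, 20.7% were higher and 1.57% lower, while of the 1022 sites with AP-1 letters and no JunB site 6.07% were higher and 5.58% lower. Without AP-1 letters, 18.1% of sites with a JunB site were higher and 5.61% lower, and with neither, 5.16% were higher and 9.73% lower. A JunB site thus marked more of the gains than the letters did.

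**Figure D4:**
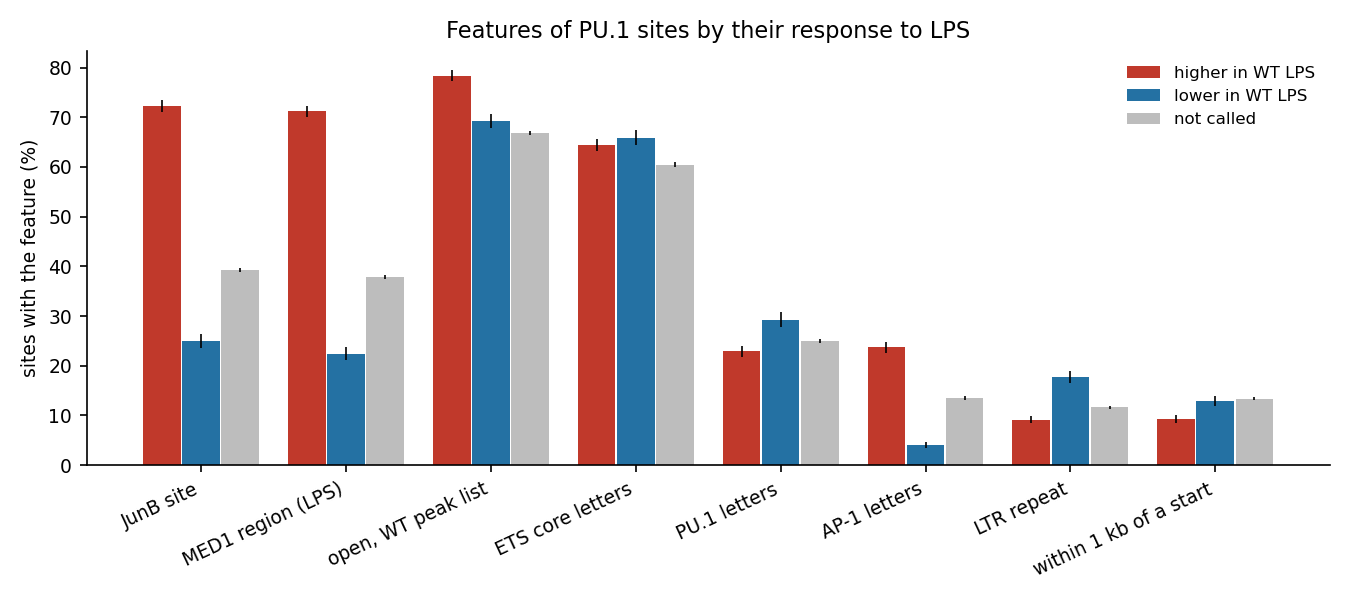
Percentage of PU.1 sites with each feature among sites called higher in WT LPS (red), called lower (blue) and not called (grey), with exact 95% binomial intervals. JunB and MED1 overlap stand at 72.3 and 71.2% of higher sites, against 25 and 22.4% of lower sites.

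Fewer of the gains than of the other sites lay at promoters. Within 1 kb of a transcription start lay 9.26% of higher, 12.8% of lower and 13.3% of uncalled sites, and within 500 bases 4.78% of higher, 11.3% of lower and 9.70% of uncalled sites. Higher and lower sites had a like median of mean reads, 37.5 and 38.6 per WT library, and a like GC content, 48.3% and 50.2%. Among the 9582 sites with a mean under 15 reads, 508 were higher and 80 lower, so gains and losses were not called evenly at low depth.

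Losses outnumbered gains at sites with 4 or more ETS cores, but not at those with fewer. At 2 cores 12.5% of sites were higher and 9.16% lower, and at 3 cores 14.3% were higher and 11.6% lower. Of the 10 largest falls at well-covered sites, 4 held 6 or more ETS cores and 4 held none. The Stab2 intron site shown above (Stab2 is a scavenger receptor gene) held 21.8 and 16.9 normalised reads in WT LPS and 97.0 and 104 in WT Ctrl, a log2 change of -2.33 ± 0.238 (SE; limma adjusted p = 1.76e-19). Its change in GPS2 KO was -0.96. The Ksr2 site held 21.8 and 16.9 in WT LPS and 79.3 and 85.5 in WT Ctrl, but its GPS2 KO change was 0.41 (adjusted p of the difference 3.54e-12). A site 109 kb upstream of Srrm4, with no ETS core and a fall as large as that at Stab2, held 9.70 and 5.30 in WT LPS and 40.6 and 37.8 in WT Ctrl, with a GPS2 KO change of 1.09. None of these 3 overlapped a JunB site. Of the 1070 sites with 4 or more ETS cores, 95 were higher (8.88%) and 217 lower (20.3%; 92 to 182 without 1 WT library), and 60.7% of them lay in simple or low-complexity repeats. In GPS2 KO the same 1070 sites went the other way, with 245 higher (22.9%) and 62 lower (5.79%), and the difference between genotypes passed the test at 245 of them (22.9%, against 8.27% of all sites).

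Long terminal repeats (LTRs), remnants of retroviruses, made up 17.8% of lower sites, 9.15% of higher sites and 11.8% of all sites. The LTR family RLTR45 stood out among these. Its 522 sites held a median of 14.5 and 14.8 normalised reads in WT LPS and 21 and 21.2 in WT Ctrl, and 12 were higher and 111 lower (21.3%; 36 to 94 without 1 WT library, the lowest without WT LPS replicate 2). In GPS2 KO the medians were 36.1 and 37.5 with LPS and 15.8 and 14.6 without, and 376 of the 522 were higher (72.0%) and 11 lower. The difference between genotypes passed the test at 353 (67.6%). The other 5627 LTR sites had 507 higher and 578 lower, and the difference passed at 447 (7.94%). Of the RLTR45 sites, 41.8% held PU.1 letters, 8.24% overlapped a JunB site and 9.58% a region of the WT open chromatin list. RLTR45 was chosen after its values were seen, and reads from its near-identical copies cannot be assigned to 1 copy with certainty.

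The largest gains by count came from ribosomal RNA repeats. Of the 10 largest well-covered gains, 8 lay in LSU or SSU rRNA fragments, named by their neighbours Cdk8, Filip1l, Gm8579, Hic2, Mir6356, Myom2, Pex2 and Txndc11. All 19 such sites together held a median of 122 and 111 normalised reads in WT LPS and 21.6 and 21.9 in WT Ctrl, and 18 of 19 were called higher (16 to 18 without 1 WT library), with log2 changes of 0.94 to 3.33. In GPS2 KO the median was 116.5 and 116.8 with LPS and 59.0 and 65.5 without, a median log2 change of 0.66, and the difference between genotypes passed the test at 15. None held PU.1 letters, and 18 were still called higher when scaled to all mapped reads. Ribosomal RNA genes exist in many copies outside the assembled chromosomes, so the reads cannot be assigned to these places. The share of mapped reads inside sites was lower with LPS in both genotypes, while the median log2 change of these 19 sites was 2.22 in WT and 0.66 in GPS2 KO. The part of that share in the gains was not tested.

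**Figure D5:**
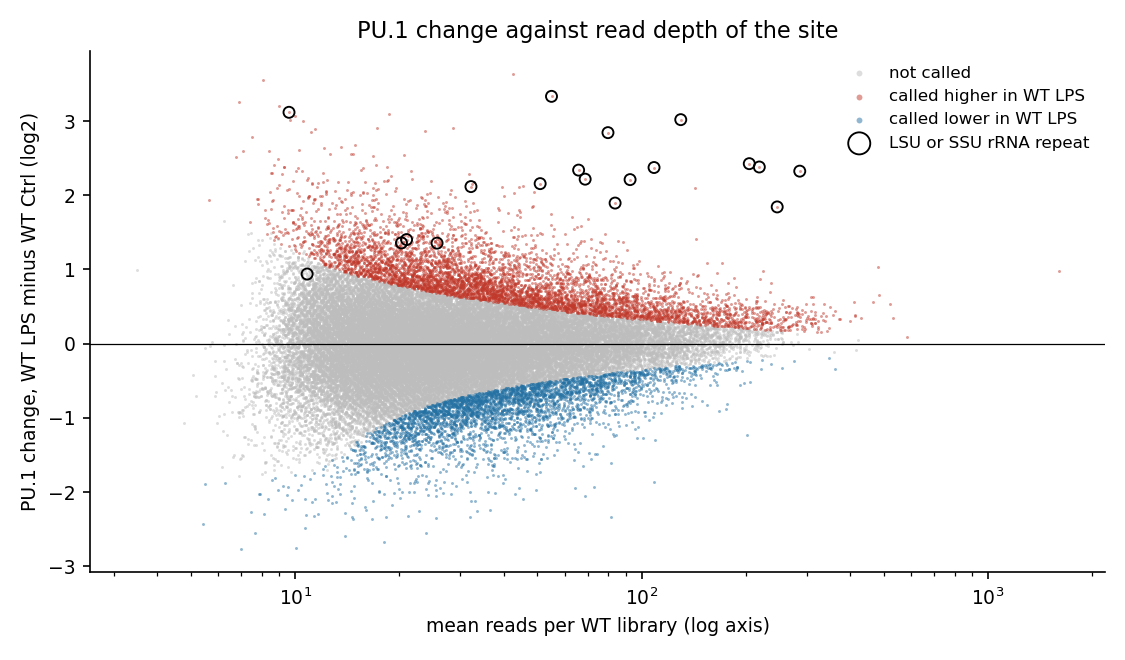
PU.1 change, WT LPS minus WT Ctrl (log2), against the mean reads per WT library (log axis) for 52009 sites, with called higher sites in red, called lower sites in blue and the 19 rRNA repeat sites ringed. Well-covered sites with a change above 2 are mostly rRNA repeats, and the highest point is the Flrt3 site at 3.63.

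The authors' deposited table gives its own comparison of the same libraries, with 1138 sites under an adjusted p of 0.05, 754 higher and 384 lower with LPS. All 754 and all 384 were called in the same direction here, and the log2 changes of the authors' deposited table correlated at an r of 0.996 with those given here across 52009 sites.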

How the data were processed

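PU.1 and JunB ChIP-seq and RNA-seq values were deposited by the authors as normalised tag counts, in reads per 10000000 mapped reads per library, over merged sites or RefSeq transcripts, with decimal commas, per the file headers. They are thus not raw counts. Multiplied by the library totals in the headers, the PU.1 and JunB values gave whole reads (to within 0.05 of a read). For RNA the library totals were estimated from the spacing of the values themselves, so whole reads there rest partly on that estimate. The authors' deposited table also gives a log2 fold change and an adjusted p-value per site. Of the open chromatin table, whose deposited value is a peak score, only the positions were used. The peaks were merged on build mm9, per the file headers, and PU.1 sites come from peak lists of 7 libraries.

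For this report, sites with 10 reads (at the median depth) in at least 2 libraries and 15 in all were kept. Values were divided by TMM factors, a pseudocount of 1 was added, and all 8 PU.1 libraries were fitted together on the log2 scale in limma 3.58.1 (R 4.3.3) with precision weights from the recovered reads, in two-sided tests with Benjamini-Hochberg adjustment. Fold changes on this scale understate the change of sites with few reads. RNA was fitted with a trend and robust moderation. Regions were joined by an overlap of at least 1 bp (bedtools 2.31.1). The fit was tested on simulated data. Sites were assigned to genes as the deposited table annotates them.

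Named sites were the 10 largest called changes in each direction at a mean of at least 30 reads, the 2 extreme called sites in each direction of each of 19 gene lists, and all sites of 12 genes. The members, lists and motifs were chosen with earlier results of these data known. Exact binomial intervals (95%) cover counting error only. Alternatives were other scalings, filters, pseudocounts and thresholds, a fit of the WT libraries alone, and leaving out each library.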

Additional observations from a re-analysis of the deposited data

Results flagged for a closer look

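At 28 of the 166 named sites, the PU.1 change in WT (WT LPS minus WT Ctrl) differed from that in GPS2 KO (GPS2 KO LPS minus GPS2 KO Ctrl) by the interaction test in limma (adjusted p under 0.05). The values are the WT change minus the GPS2 KO change, in log2. They were 2.27 at Myom2, 2.20 at Txndc11, 1.84 at Cdk8, 1.82 at Gm8579, 1.80 at Mir6356, 1.72 at Filip1l, 1.65 at Pex2 and 1.55 at Hic2, all of them rRNA repeats. At sites with gains in WT outside these repeats the differences were 2.14 at Pid1, 1.70 at Zfp36l2, 1.46 at Limd1, 1.16 at Arg1, 1.07 at Hilpda, 1.05 at the Ccl2 site at 24.8 kb, 0.85 and 0.76 at 2 Cd36 sites and 0.47 at Slc2a1. At Abca1 the difference was -0.97 at 39.3 kb, where the signal was higher in WT LPS and the gain in GPS2 KO was larger, and 0.55 at 27.5 kb upstream, where the WT change itself was not called. At Srrm4 the difference was -3.42, at Ksr2 -2.46, at Gm31508 -2.26, at Retnlg -1.82, at Bbs9 -1.57, at Cxcl1 -1.40, at Stab2 -1.37, at Mmp9 -1.31 and at Csf1 -1.05, all of them sites with a lower signal in WT LPS than in WT Ctrl. The Pid1, Zfp36l2, Limd1 and Hilpda sites were chosen after their values were seen.

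In the RNA of the 12 genes followed site by site, 1 library stood far from the other 3 of its group in 3 of 24 groups, where chance flags about 1 group in 20. These values were 41301 normalised reads for Ccl2 in WT LPS, 718 for Gpnmb in WT LPS and 10674 for Cd14 in WT Con.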

How the results depend on the processing

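The scaling decided the balance of directions. With library totals in place of TMM, 31559 PU.1 sites were called, 689 higher and 30870 lower, and 55837 JunB sites, 55818 higher and 19 lower. On that scaling 47 of the 166 named PU.1 sites changed sign. At 13 of these neither scaling gave a call, and the other 34 had log2 changes of -0.28, -0.51, -0.61 and -0.55 at Ccl2, -0.35, -0.19, -0.45, -0.12 and -0.59 at Il1b, -0.14 at Arg1, -0.42 at Slc2a1, -0.27 at Tnfrsf11a, -0.12 at Dcstamp, -0.58 at Tnf, -0.55 at Il10, -0.67, -0.43 and -0.59 at Spi1, -0.69 at Csf1r, -0.15, -0.58 and -0.67 at Cd14, -0.45, -0.20, -0.085, -0.11, -0.23 and -0.51 at Cd36, and -0.54, -0.095, -0.62, -0.16, -0.15 and -0.62 at Abca1. Against 9546 calls in all, a mean of at least 50 reads gave 2916 (1867 higher, 1049 lower) of 8372 sites tested, a variance trend without weights 6163 (3370 higher), and an adjusted p under 0.01 5315 (3455 higher, 1860 lower). Leaving out 1 of the 8 libraries gave 4536 to 9670 calls, 2786 to 5701 higher and 1101 to 3990 lower, the lowest totals with a WT library left out, where 1 group holds a single library. Among named sites called with all libraries or in the fit concerned, none changed sign in those fits. Changes of sign at uncalled sites were not counted there. Median-of-ratios factors gave 9543 calls, cyclic loess 9255, no filter 9561, pseudocounts of 0.5 and 5 9492 and 9151, the 4 WT libraries alone 9672, and a fold of at least 1.5 7353. An exact binomial test on summed reads gave 7695 and leaving out rRNA repeats 9527, both chosen after seeing the data. With the replicate number as a block, 9110 sites were called. Same-numbered libraries did not deviate together (correlations of -0.008 to 0.010), so the numbers were not taken to pair them. Without RNA WT LPS replicate 4, 9419 genes were called, against 8297 with it. The planned edgeR and DESeq2 fits were not run, since the deposited values are normalised. The median site held 18 to 34 reads per WT library, and the size of change that this depth can show was not tested.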

Other observations

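Letters of other macrophage factors were spread more evenly over the PU.1 changes than those of AP-1 and NF-kB. Of the 5006 sites with the interferon-response letters GAAANNGAA, 12.0% were higher and 7.39% lower in WT LPS, and of the 8028 sites with the ETS-IRF letters GGAANNGAA 12.6% were higher and 7.93% lower, against 10.9% and 7.45% of all sites. Sites with the RUNX letters TGTGGTT (2847) had 11.3% higher and 6.78% lower, and sites with the STAT letters TTCCNNGAA (1763) had 10.6% and 6.52%. The 384 sites with the C/EBP letters TTGCGNAA had 8.85% higher and 5.47% lower, and the 267 with the CREB letters TGACGTCA 8.61% and 6.74%, although 81.6% of these overlapped a JunB site. The 133 sites with the CLEAR letters TCACGTGA, which TFEB-family factors bind, had 7 higher and 12 lower.

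Among the other repeats, the LTR family ORR1E had 36 higher (5.87%) and 87 lower (14.2%) of 613 sites in WT LPS, against 10.9% and 7.45% of all sites. RMER16 had 2 higher (2.67%) and 15 lower (20.0%) of 75. LINE sites had 11.0% higher and 6.23% lower and SINE sites 9.34% and 5.31%. The 1152 low-complexity sites had 11.4% higher and 11.1% lower in WT, with a median log2 change of -0.06, against 24% higher and 3.21% lower in GPS2 KO, with a median of 0.40. These groups were chosen after their values were seen.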
